A study of Mus musculus with 19 samples.

Results

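A set of 10 genes of neutrophil granules and neutrophil receptors were followed in the medial prefrontal cortex of mice given lipopolysaccharide (LPS), sedanolide, both or neither: S100a8, S100a9, Ltf, Retnlg, Camp, Ngp, Mmp8, Mmp9, Cxcr2 and Csf3r. They were chosen with earlier results of these data known and taken by gene symbol. All 10 were found among the 57010 genes of the deposited count table. The study used wild-type (WT) mice in 4 groups, and what was sequenced is poly(A) RNA of whole tissue. Control mice (n = 4, replicates 1, 2, 4 and 5) had saline by gavage for 8 days and saline injected into the peritoneum on 5 days. LPS mice (n = 5) had LPS, a component of the bacterial outer membrane that sets off systemic inflammation, at 1 mg/kg in the 5 injections, with saline by gavage. Sedanolide mice (n = 5) were gavaged for 8 days with 20 mg/kg of sedanolide, a phthalide of celery, and injected with saline. Co-treated mice (n = 5) had both agents, with gavage ahead of the LPS injections by 3 days. Age, sex, substrain and whether vessels were flushed of blood are not given in the sources used here, and nothing says that replicates were separate animals, so p-values measure the spread between these libraries.

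Neutrophils are short-lived white blood cells made in the bone marrow, and they carry antimicrobial proteins and proteases in granules that are filled in sequence as the cell matures. The growth factor G-CSF, read by the receptor that Csf3r encodes, drives their production, and chemokines read by Cxcr2 draw them out of the marrow and into inflamed tissue. The healthy cortex holds very few neutrophils outside its vessels, and after systemic LPS they gather along the vessel wall and in the meninges.

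Library totals ran from 19.08 M to 24.32 M counts (M = mega, mean 22.23 M ± 1.53, SD, n = 19), and a level in CPM is a count divided by the library's total in M after trimmed-mean scaling. At this depth 1 CPM is about 22.23 counts, so that most member values in control libraries rest on fewer than 40 counts. The cortical neuron markers (Slc17a7, Tbr1, Neurod6, Gad1 and Gad2) summed to 1968 to 2806 CPM over all libraries. Markers of the olfactory bulb (Eomes, Cdhr1, Doc2g and Shisa3) set libraries apart: Cdhr1, a cadherin gene of bulb projection neurons, was at 57.7 CPM or more in 7 libraries (control 1 and 5, LPS 2, 3 and 4, sedanolide 3 and 4). It was at 9.92 CPM or less in the remaining 12, called bulb-poor below. All 5 co-treated libraries were bulb-poor, so the members' results against them are also given in the bulb-poor libraries. Over all genes, co-treated against LPS called 350 in all libraries and 35 in the bulb-poor ones. In bulk tissue, fewer cells of a type and less RNA per cell cannot be told apart.

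In the deposited coordinates, whose genome build is not given, the calprotectin genes S100a8 (ENSMUSG00000056054, chromosome 3, 90576285 to 90577342) and S100a9 (ENSMUSG00000056071, chromosome 3, 90599939 to 90603028) lie 22.6 kb apart on opposite strands. Camp (ENSMUSG00000038357, from 109676447 to 109678685), Ngp (ENSMUSG00000032484, from 110248815 to 110252080) and Ltf (ENSMUSG00000032496, from 110848339 to 110871835) follow each other on chromosome 9, with gaps of 570 kb and 596 kb. Mmp8 (ENSMUSG00000005800, from 7558457 to 7568486) is on the same chromosome, far from them. Retnlg (ENSMUSG00000022651) lies on chromosome 16 from 48692984 to 48694859 and Mmp9 (ENSMUSG00000017737) on chromosome 2 from 164782700 to 164797770. The receptor genes are Cxcr2 (ENSMUSG00000026180) on chromosome 1 from 74193148 to 74200405 and Csf3r (ENSMUSG00000028859) on chromosome 4 from 125918343 to 125938233. No member overlaps another gene of the table.

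Because the members moved together, their promoters were read. RefSeq gives the 250 bases before the start for 9 of the 10 (GRCm38.p6, all but Mmp9), and 5 are printed to show where matches to myeloid motifs lie. They are S100a8 (chr3:90668821-90669070, plus strand), S100a9 (chr3:90695722-90695971, minus strand), Ngp (chr9:110419558-110419807, plus strand), Ltf (chr9:111019042-111019291, plus strand) and Csf3r (chr4:126024409-126024658, plus strand), each written 5′ to 3′ in the direction of the gene. Capitals mark, on either strand, matches to a C/EBP motif (TTGCNNAA) or a PU.1 motif (GAGGAAG), motifs of factors of the myeloid lineage.
S100a8: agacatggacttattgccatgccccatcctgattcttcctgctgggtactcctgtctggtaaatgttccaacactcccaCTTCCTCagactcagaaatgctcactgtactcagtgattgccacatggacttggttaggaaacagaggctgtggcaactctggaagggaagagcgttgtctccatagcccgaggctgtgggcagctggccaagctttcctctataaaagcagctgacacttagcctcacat
S100a9: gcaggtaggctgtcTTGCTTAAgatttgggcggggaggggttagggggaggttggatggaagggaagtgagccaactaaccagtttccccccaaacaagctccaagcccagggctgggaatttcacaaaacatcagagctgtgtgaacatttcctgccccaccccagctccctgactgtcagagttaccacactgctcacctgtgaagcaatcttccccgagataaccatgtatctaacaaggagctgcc
Ngp: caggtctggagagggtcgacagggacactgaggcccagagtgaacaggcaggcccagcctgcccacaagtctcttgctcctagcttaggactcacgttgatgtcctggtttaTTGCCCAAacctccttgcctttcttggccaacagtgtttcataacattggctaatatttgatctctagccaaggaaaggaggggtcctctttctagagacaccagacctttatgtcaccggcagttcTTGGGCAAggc
Ltf: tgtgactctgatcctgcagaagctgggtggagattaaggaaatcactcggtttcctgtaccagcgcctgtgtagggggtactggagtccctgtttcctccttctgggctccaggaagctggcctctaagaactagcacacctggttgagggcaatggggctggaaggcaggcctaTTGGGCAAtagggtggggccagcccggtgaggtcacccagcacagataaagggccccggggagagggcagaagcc
Csf3r: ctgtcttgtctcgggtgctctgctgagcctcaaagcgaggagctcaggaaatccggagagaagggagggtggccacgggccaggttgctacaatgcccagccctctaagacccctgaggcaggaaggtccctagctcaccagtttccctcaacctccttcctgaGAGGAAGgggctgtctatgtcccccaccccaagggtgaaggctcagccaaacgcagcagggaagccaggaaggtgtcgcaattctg
The C/EBP motif is in 5 of 9 member promoters (Ltf, Mmp8, Ngp, Retnlg and S100a9) and in 9.56% of all 32851 promoters. In Ngp it starts 138 and again 11 bases before the gene, and in Ltf 75 bases before it. The PU.1 motif is in 3 of 9 (Csf3r, Mmp8 and S100a8) and in 10.6% of all, and the printed matches do not overlap. Camp and Cxcr2 hold neither. The C/EBP motif is thus in neither receptor gene and in S100a9 but not S100a8, and Camp is a granule gene without it. A motif of AP-1 (TGANTCA) is in 0 of 9 against 6.75%, and one of NF-kB (GGG, then any 5 bases, then CC) in 3 of 9 (Csf3r, Cxcr2 and Ltf) against 45.8%. These spellings were chosen after others had been tried, and a match describes letters, not a bound site.

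LPS raised all 10 members. By the quasi-likelihood test of edgeR, with adjustment by Benjamini-Hochberg over the 17757 genes tested, 10 of 10 were called higher at an adjusted p below 0.05, against 8.47% of all genes called higher. All 10 also had their 5 LPS libraries above their 4 control libraries, as did 7.93% of all genes. Because the members were chosen with earlier results of these data known, these shares and those below give no independent support. Their log2 fold changes ran from 1.80 (Camp) to 4.48 (Cxcr2) with a median of 3.42, where the median of all genes was -0.0034. All 10 passed the filter on low counts, which asks for 0.449 CPM in 4 libraries, and 3 did so only through the LPS group. Retnlg reached that level in 5 LPS libraries and no other, Mmp8 in 5 LPS and 1 co-treated library, and Camp in 4 LPS and 2 co-treated libraries, so for these genes passing the filter and differing from LPS libraries are not independent. In the 12 bulb-poor libraries this comparison rests on control replicates 2 and 4 and LPS replicates 1 and 5. There 8 members were called higher, where 4.07% of all genes were, and Ngp (1.88, adjusted p = 0.277) and Camp (1.94, adjusted p = 0.292) were not. In the sum over the 10 genes, the LPS libraries held 71.4 to 77.8 CPM, the controls 8.39 to 13.8, the sedanolide libraries 6.26 to 13.7 and the co-treated libraries 33.4 to 44.9, with no overlap between LPS, co-treated and the other groups.

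**Figure D1:**
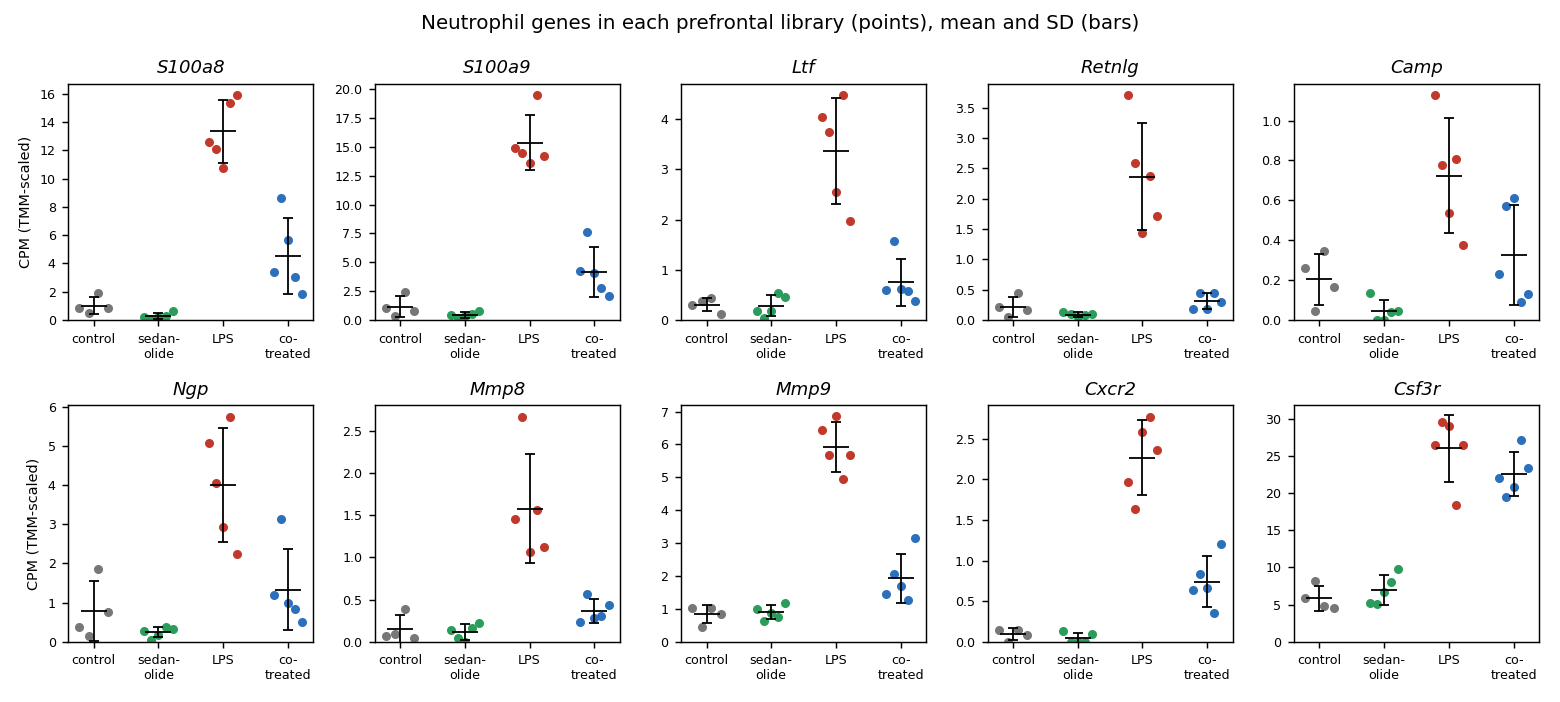
Level of each of the 10 genes (CPM, linear axis from 0) in every library by group, with points for libraries and bars for the mean and SD. The 5 LPS libraries lie above the 4 controls in every panel, and the co-treated libraries lie below all LPS libraries for 7 genes but among them for Csf3r.

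S100a8 and S100a9 encode the subunits of calprotectin, a calcium- and zinc-binding protein that fills the neutrophil cytosol and signals to other cells once released. S100a8 stood at 0.850, 0.464, 1.92 and 0.877 CPM in the controls (replicates 1, 2, 4 and 5) and at 12.6, 12.1, 10.7, 15.3 and 15.9 CPM in the LPS libraries. In the co-treated libraries it stood at 3.39, 8.63, 5.64, 3.05 and 1.81 CPM, and with sedanolide alone at 0.183, 0.0978, 0.222, 0.294 and 0.639 CPM. The co-treated libraries thus lay below every LPS library, while their lowest, replicate 5, fell just under control 4, the highest control. S100a8 rose 13.1-fold after LPS (log2 3.71, SE 0.44, adjusted p = 8.59e-06) and was lower in co-treated libraries by a log2 change of -1.56 (SE 0.36, adjusted p = 0.0287), a level 0.338 of that with LPS alone.

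S100a9 followed closely. It stood at 1.07, 0.371, 2.46 and 0.752 CPM in controls and at 14.9, 14.5, 13.6, 19.5 and 14.3 CPM after LPS. It stood at 4.26, 7.66, 4.09, 2.79 and 2.07 CPM in co-treated and at 0.458, 0.147, 0.311, 0.545 and 0.822 CPM in sedanolide libraries. Again no co-treated library reached the LPS range, and 1 of 5 lay under the highest control. The rise after LPS was 13.3-fold (log2 3.74, SE 0.44, adjusted p = 7.85e-06), and the difference of co-treated from LPS was -1.88 (SE 0.36, adjusted p = 0.0106). Per kb of exon, S100a9 (29.4 CPM per kb) and S100a8 (19.2) were the most abundant members in the LPS libraries, followed by Csf3r at 7.21, Retnlg at 3.99 and Ngp at 3.28 CPM per kb.

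Ltf, Camp and Ngp encode proteins of the specific granules: lactoferrin, which binds iron, the precursor of the antimicrobial peptide CRAMP, and neutrophilic granule protein, a cystatin-like protein of the mouse. Ltf stood at 0.296, 0.371, 0.442 and 0.125 CPM in controls and at 4.04, 3.75, 2.55, 4.49 and 1.98 CPM after LPS. In co-treated libraries it stood at 0.596, 1.58, 0.611, 0.575 and 0.388 CPM, and with sedanolide alone at 0.183, 0.0489, 0.178, 0.545 and 0.457 CPM. All co-treated libraries were below the LPS range, with replicate 2 well above the other 4. Ltf rose 10.9-fold after LPS (log2 3.44, SE 0.48, adjusted p = 4.35e-05) and was lower in co-treated libraries by -2.15 (SE 0.40, adjusted p = 0.00741).

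Ngp stood at 0.369, 0.139, 1.87 and 0.752 CPM in controls, and at 5.08, 4.05, 2.92, 5.75 and 2.25 CPM after LPS. It stood at 1.19, 3.12, 0.988, 0.840 and 0.517 CPM in co-treated and at 0.275, 0.0489, 0.178, 0.378 and 0.320 CPM in sedanolide libraries. Co-treated replicate 2 lay inside the LPS range and the other 4 below it. Ngp rose by 2.38 on the log2 scale after LPS (SE 0.57, adjusted p = 0.00824), a call lost in the bulb-poor libraries, and its difference of co-treated from LPS, -1.58 (SE 0.49), did not pass the test (adjusted p = 0.102). Without co-treated replicate 2 that difference was -2.18 and was called (adjusted p = 0.0364).

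Camp was the member with the fewest counts, at 24, 18, 13, 16 and 7 counts in the LPS libraries and at 7, 1, 7 and 4 in the controls. The co-treated libraries held 5, 13, 13, 2 and 3 counts and the sedanolide libraries 3, 0, 0, 1 and 1. Its log2 rise after LPS was 1.80 (SE 0.56, adjusted p = 0.0457), and this call was lost in 10 of the 19 fits that left out 1 library. Co-treated against LPS, Camp differed by -1.15 (SE 0.49, adjusted p = 0.209) with overlapping groups.

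Retnlg encodes resistin-like gamma, a secreted protein of rodent neutrophils and marrow, and it showed the largest drop under co-treatment. It stood at 0.222, 0.0464, 0.442 and 0.167 CPM in controls and at 3.71, 2.58, 1.44, 2.37 and 1.71 CPM after LPS. Co-treated libraries held 0.183, 0.440, 0.188, 0.442 and 0.302 CPM, and sedanolide libraries 0.137, 0.0978, 0.0445, 0.0839 and 0.0914 CPM. The co-treated values lay within the range of the controls or, in replicate 4, level with the highest control. Retnlg rose 10.7-fold after LPS (log2 3.42, SE 0.41, adjusted p = 7.06e-06) and was 7.45-fold lower in co-treated libraries than with LPS alone (log2 -2.90, SE 0.36, adjusted p = 0.000254), the 10th smallest p of the 17757 genes. Retnlg passed the filter on low counts only through the LPS libraries, so this rank is not independent of the filter. Co-treated against control, its log2 change was 0.52 with an approximate 95% interval from -0.39 to 1.43 (adjusted p = 0.50). The other resistin genes, Retn, Retnla and Retnlb, summed to at most 0.470 CPM in any library and were not tested.

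Mmp8 and Mmp9 encode a collagenase of specific granules and the gelatinase of gelatinase granules. Both cleave extracellular matrix, and Mmp9 is also made by other cells of the inflamed brain. Mmp9 stood at 1.03, 0.464, 1.03 and 0.835 CPM in controls and at 6.44, 5.68, 6.87, 4.94 and 5.68 CPM after LPS. It stood at 1.47, 2.07, 1.69, 1.28 and 3.15 CPM in co-treated and at 1.01, 0.636, 0.889, 0.755 and 1.19 CPM in sedanolide libraries. The LPS, co-treated and control libraries formed 3 ranges that did not overlap. Mmp9 rose 6.98-fold after LPS (log2 2.80, SE 0.27, adjusted p = 4.97e-07) and was lower in co-treated libraries by -1.61 (SE 0.23, adjusted p = 0.00106).

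Mmp9 was also the member for which the interaction passed the test. In that test the sedanolide change with LPS is set against the change without it, and 1 of 10 members was called lower, where 0.372% of all genes were. Without LPS, sedanolide changed Mmp9 by 0.08 (SE 0.28), and the difference between both changes was -1.70 (SE 0.36, adjusted p = 0.0412). The call was lost in 14 of the 19 fits that left out 1 library and in the bulb-poor libraries. Ltf (-2.07, adjusted p = 0.165), Mmp8 (-1.82, adjusted p = 0.302) and Retnlg (-1.69, adjusted p = 0.264) had interaction terms of similar size that were not called. The remaining members, also not called, had smaller terms of either sign. They were -0.60 (Cxcr2), -0.57 (S100a9), -0.46 (Csf3r), 0.05 (Ngp), 0.23 (S100a8) and 0.90 (Camp).

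Mmp8 held 2, 2, 8 and 1 counts in the controls, 31, 62, 26, 31 and 21 after LPS, 5, 13, 6, 7 and 10 in co-treated and 3, 1, 0, 4 and 5 in sedanolide libraries. All LPS libraries exceeded all others. Mmp8 rose 10.7-fold (log2 3.42, SE 0.53, adjusted p = 0.000149) and was lower in co-treated libraries by -2.09 (SE 0.43, adjusted p = 0.0155).

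The receptors took different courses. Cxcr2, the receptor for the chemokines Cxcl1, Cxcl2 and Cxcl5, stood at 0.148, 0, 0.147 and 0.0835 CPM in controls, which together held 9 counts, and at 1.97, 1.64, 2.59, 2.77 and 2.36 CPM after LPS. In co-treated libraries it stood at 0.642, 0.836, 0.658, 0.354 and 1.21 CPM, and in sedanolide libraries at 0.137, 0, 0, 0 and 0.0914 CPM. Every co-treated library lay between the controls and the LPS libraries. The rise after LPS was the largest of the members (log2 4.48, SE 0.53, adjusted p = 6.17e-06), and co-treated libraries were lower than LPS by -1.60 (SE 0.37, adjusted p = 0.0299). Co-treated against control, Cxcr2 was higher by 2.87 (SE 0.56, adjusted p = 0.0027).

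Csf3r, the G-CSF receptor, which mouse microglia also express, had the highest counts of the members in every group but the smallest difference between LPS and co-treated libraries. It stood at 5.84, 8.21, 4.77 and 4.59 CPM in controls and at 26.5, 29.6, 29.1, 18.5 and 26.5 CPM after LPS. It stood at 22.01, 19.5, 20.8, 27.2 and 23.4 CPM in co-treated and at 5.22, 5.14, 6.76, 8.01 and 9.82 CPM in sedanolide libraries. LPS and co-treated libraries shared 1 range, and all 10 of them lay above both other groups. Csf3r rose 4.45-fold after LPS (log2 2.15, SE 0.21, adjusted p = 5.09e-07) and 3.86-fold in co-treated mice against control. Co-treated against LPS it differed by -0.21 (SE 0.18, adjusted p = 0.518), with an approximate 95% interval from -0.56 to 0.14. Microglial markers (Tmem119, P2ry12, Sall1, Cx3cr1 and Siglech) summed to 239 CPM ± 31.8 (SD, n = 4) in controls, 367 ± 23.9 (n = 5) after LPS, 238 ± 27.0 (n = 5) with sedanolide and 332 ± 36.1 (n = 5) with both, and their part in the course of Csf3r was not tested.

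Set against LPS alone, 7 of the 10 members were lower in co-treated mice by the same test: S100a8, S100a9, Ltf, Retnlg, Mmp8, Mmp9 and Cxcr2. Of all genes, 1.68% were called lower. Retnlg and Mmp8 passed the filter on low counts only through the LPS group, so their calls here are not independent of the filter. The same 7 had all 5 co-treated libraries below all 5 LPS libraries, as 4.6% of all genes had. All 10 log2 changes were below 0, with a median of -1.61 against -0.01 for all genes. Retnlg, Mmp9, S100a9 and Ltf were called in each of the 19 fits without 1 library. The calls of S100a8 and Cxcr2 were each lost in 6 of these fits and that of Mmp8 in 3. The count fell to 4 without co-treated replicate 1 or without co-treated replicate 3. In the 12 bulb-poor libraries, which leave 2 LPS libraries, Retnlg (-3.09, adjusted p = 0.00615) and Mmp9 (-1.63, adjusted p = 0.0398) were called, where 0.118% of all genes were called lower. S100a8 (-1.65), S100a9 (-1.79), Ltf (-1.99), Mmp8 (-1.79) and Cxcr2 (-1.52) had adjusted p between 0.103 and 0.236 there.

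**Figure D2:**
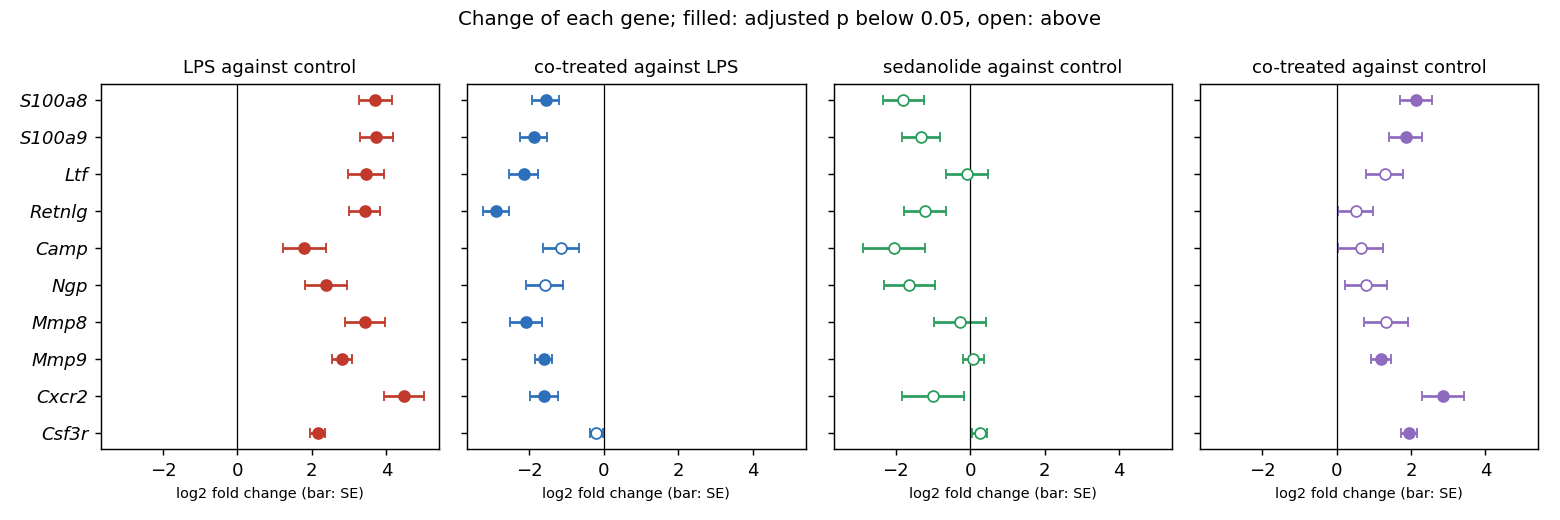
Log2 fold change of each gene in 4 comparisons, with bars for the SE, filled points for an adjusted p below 0.05 and open points above it. All 10 points are filled and right of 0 for LPS against control, 7 are filled and left of 0 for co-treated against LPS, none is filled for sedanolide against control, and 5 are filled for co-treated against control.

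**Figure D3:**
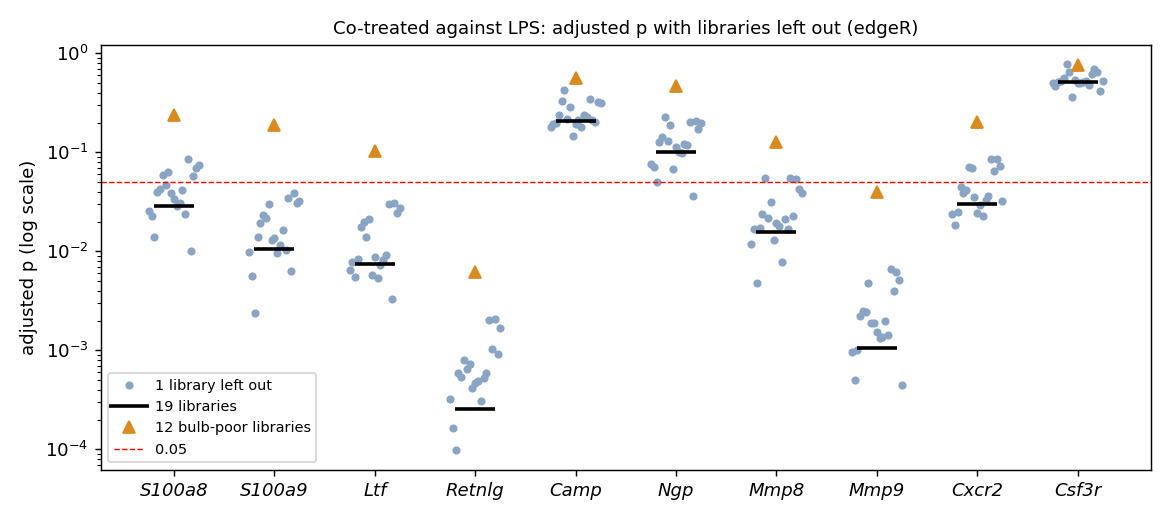
Adjusted p of co-treated against LPS on a log axis for each gene, with a bar for all 19 libraries, points for the 19 fits without 1 library, a triangle for the 12 bulb-poor libraries and a dashed line at 0.05. The points of Retnlg, Mmp9, S100a9 and Ltf stay under the line, those of S100a8, Cxcr2, Mmp8 and Ngp fall on both sides, and 2 triangles are under it.

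The count of each other member was also divided by that of Csf3r in the same library, which is free of library scaling. Csf3r was taken because it differed least between LPS and co-treated libraries. Lower ratios in co-treated than in LPS libraries follow from that choice, so these ratios are a description, with no test. The mean log2 ratio of Retnlg (0.5 added to each count) was -4.87 in controls, -3.51 after LPS and -6.16 in co-treated libraries. That of Cxcr2 was -5.97, -3.51 and -4.98 in the same order, and that of Ngp -3.37, -2.75 and -4.32. For Camp it was -4.90, -5.19 and -6.35, so that relative to Csf3r the mean of Camp was no higher after LPS than in controls.

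**Figure D4:**
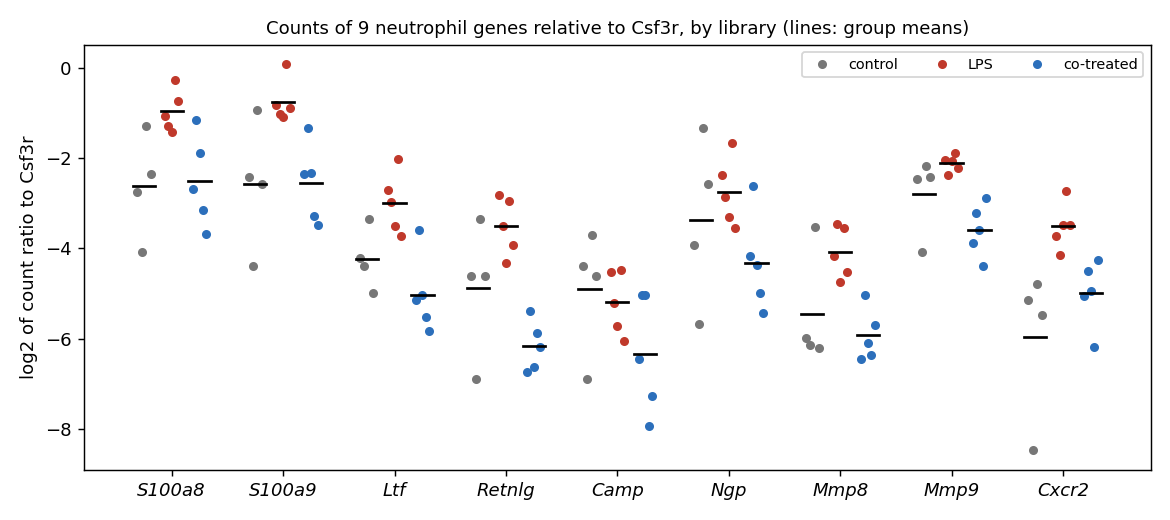
Log2 of the count ratio of 9 genes to Csf3r in each control, LPS and co-treated library, with lines for group means. The mean of the co-treated libraries lies below that of the LPS libraries for every gene, which follows from taking the least changed member as divisor. For Retnlg the mean moves from -3.51 to -6.16.

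Co-treated mice did not return to control levels in all members. Against control, 5 of 10 members were called higher (Csf3r, Cxcr2, S100a8, S100a9 and Mmp9), where 6.38% of all genes were, and 3 (Mmp9, Cxcr2 and Csf3r) had groups that did not overlap, where 7.91% of all genes did. S100a8 was higher by 2.14 (SE 0.44, adjusted p = 0.0039), S100a9 by 1.86 (SE 0.43, adjusted p = 0.0109) and Mmp9 by 1.19 (SE 0.27, adjusted p = 0.00821). Ltf (1.29, adjusted p = 0.101), Mmp8 (1.33, adjusted p = 0.149), Ngp (0.79, adjusted p = 0.387) and Camp (0.65, adjusted p = 0.518) were not called. In the bulb-poor libraries, whose only controls are replicates 2 and 4, Cxcr2 and Csf3r were called, where 2.68% of all genes were.

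With sedanolide alone 0 of 10 members were called by edgeR, where 5.31% of all genes were called in either direction. At an unadjusted p below 0.05, S100a8, S100a9, Retnlg, Camp and Ngp passed, 5 of 10, against 24.9% of all genes, and DESeq2 called S100a8 and S100a9 lower. S100a8 had the smallest adjusted p (log2 -1.79, SE 0.55, adjusted p = 0.0599), and it was called in 3 of 19 fits without 1 library (without control replicate 2, co-treated replicate 2 or co-treated replicate 5). S100a9 (-1.31), Ngp (-1.63), Camp (-2.04) and Retnlg (-1.21) had adjusted p from 0.123 to 0.191. The control and sedanolide libraries overlapped for all 10 members. Csf3r differed by 0.26 (SE 0.20, adjusted p = 0.443).

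When LPS was given on top of sedanolide, 7 of 10 members were higher than with sedanolide alone, where 5.09% of all genes were called higher. In 8 of 10 the groups did not overlap, where 5.4% of all genes were apart in that direction. S100a8 was 15.3-fold higher (log2 3.94, SE 0.48, adjusted p = 1.49e-05), Cxcr2 14.7-fold (log2 3.87, SE 0.60, adjusted p = 0.000209) and S100a9 8.98-fold (log2 3.17, SE 0.45, adjusted p = 0.000104). Retnlg (1.73, adjusted p = 0.0544), Mmp8 (1.60, adjusted p = 0.138) and Ltf (1.37, adjusted p = 0.121) were not called. In the bulb-poor libraries S100a8, S100a9, Cxcr2 and Csf3r were called, 4 of 10, where 4.64% of all genes were. These comparisons share groups, so they are not independent of each other.

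Across the 19 libraries the members kept close company, which is a description, since groups and library scaling are shared. The Pearson correlation of a member's log2 CPM with the mean of the other members was highest for S100a9 (0.987) and S100a8 (0.963) and lowest for Csf3r (0.792) and Camp (0.869). Among the other genes tested, those most like the members' mean included Cyp4f18 (0.948), Fgr (0.946), Cd177 (0.945), Lcn2 (0.942), Slc31a1 (0.939), Plbd1 (0.937), Marco (0.937), Bst1 (0.933) and Gbp5 (0.931).

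Other genes linked to neutrophils were counted from lists that also hold genes of other cells. The lists were chosen with earlier results of these data known. Calls of list and marker genes rest on all 19 libraries and are not given in the bulb-poor ones. Beside the counts here and below, 8.47% of all genes were called higher after LPS. With both agents 1.68% were called lower than with LPS, and with sedanolide alone 5.31% were called in either direction. Of 16 further genes of specific, gelatinase or secretory granules, 15 were in the table, 11 were tested, 9 rose after LPS and 7 were lower with both agents than with LPS (Lcn2, Lyz2, Chil3, Cybb, Hp, Pglyrp1 and Cd177). Against control, 6 of the 11 were called higher in co-treated libraries (Lcn2, Lyz2, Cybb, Mmp25, Pglyrp1 and Cd177), where 6.38% of all genes were. Lcn2, whose product lipocalin 2 binds bacterial siderophores, went from 0.677 CPM ± 0.219 (SD, n = 4) in controls to 25.8 ± 14.1 (SD, n = 5) after LPS and 6.80 ± 1.00 (SD, n = 5) in co-treated libraries. Its difference of co-treated from LPS was -1.92 (SE 0.29, adjusted p = 0.00199). Lyz2, a lysozyme of all myeloid cells and the most abundant of the list, fell less (-0.79, SE 0.19, adjusted p = 0.0392) and was the list's 1 gene called lower with sedanolide alone (-0.87, SE 0.21, adjusted p = 0.0288). Ltb4r1 (1.99) and Mmp25 (2.09) rose after LPS and were not called lower in co-treated libraries. The azurophil granule genes, which are transcribed in marrow precursors, stayed low: Mpo, myeloperoxidase, reached at most 0.818 CPM and Elane, neutrophil elastase, at most 0.215 CPM in any library. Of the 7 on that list 3 were tested and 0 were called in these comparisons. Mpo and Elane did not pass the filter and were not tested, so the 0 does not cover them. Mean Mpo was 0.0908 CPM in controls, 0.395 after LPS and 0.0903 in co-treated libraries. Mean Elane was 0.0436, 0.0896 and 0.0264 CPM in the same order. The most abundant of the list was Serpinb1a, with a log2 change of -0.01 after LPS. It encodes an inhibitor of neutrophil proteases and not a granule protease, so its course does not describe the granule genes.

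Of 16 other receptor and adhesion genes, 14 were tested, 13 rose after LPS and 5 were lower with both agents than with LPS: Fpr2, Itgb2, Itgal, Trem1 and Clec4e. The shares over all genes were 8.47% and 1.68%. Itgal, the alpha chain of the integrin LFA-1, which lymphocytes carry too, went from 0.723 CPM ± 0.289 (SD, n = 4) to 9.97 ± 2.96 (SD, n = 5) after LPS and 2.14 ± 0.323 (SD, n = 5) with both (co-treated against LPS -2.22, SE 0.26, adjusted p = 0.000165). Trem1, an activating receptor of neutrophils and monocytes, dropped by 2.57 (SE 0.46, adjusted p = 0.00617). The other 8 that rose after LPS were Fpr1, C5ar1, Selplg, Itgam, Clec4d, Csf2rb, Csf2rb2 and Ackr1. Itgam, the alpha chain of the integrin Mac-1, which microglia share, rose by 1.47 (SE 0.21) and differed by 0.00 (SE 0.19) between co-treated and LPS libraries. Selplg, the ligand of P-selectin and the most abundant gene of the list, rose by 0.55 (SE 0.16, adjusted p = 0.0313) and likewise differed by 0.01. Against control, 8 of the 14 were called higher in co-treated libraries, where 6.38% of all genes were. They were Fpr1, Selplg, Itgam, Itgb2, Itgal, Trem1, Csf2rb and Csf2rb2.

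Ligands of the member receptors were scarce. Of 7, 3 were tested. Cxcl5 rose after LPS (0.96, SE 0.25, adjusted p = 0.0161), and its difference between co-treated and LPS was 0.19 (SE 0.23, adjusted p = 0.652). Cxcl1 was called lower with sedanolide alone (adjusted p = 0.0129), at 0.0491 to 0.927 CPM in controls and 0 to 0.0445 CPM in sedanolide libraries, which is at most 1 count a library. Csf3, which encodes G-CSF, reached at most 0.0861 CPM.

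Of 5 genes of receptors that bind calprotectin, Tlr4 (0.98), Cd33 (1.42) and Bsg (0.47) rose after LPS and Cd36 was lower with sedanolide alone (-0.99, adjusted p = 0.0408), and 0 were called between co-treated and LPS libraries. Of 7 inhibitors and partners of the metalloproteinases, Timp1 (1.84, SE 0.50, adjusted p = 0.0194) and Mmp2 (0.81, SE 0.18, adjusted p = 0.00423) rose after LPS. Timp1, the main inhibitor of Mmp9, differed by -1.59 between co-treated and LPS libraries (SE 0.45, adjusted p = 0.0747), and Timp2, the most abundant of the list, by 0.11. Of 8 transcription factors of granulopoiesis, 5 were tested, and Cebpa (1.11), Spi1 (1.68), which encodes PU.1, and Runx1 (1.58) rose after LPS. Between co-treated and LPS libraries 0 were called, and Cebpa, Spi1 and Runx1 were also higher in co-treated libraries than in controls. Cebpd was lower with sedanolide alone (-1.60, SE 0.35, adjusted p = 0.0183). Of 8 other S100 genes, 7 were tested. S100a11 rose after LPS (1.12, SE 0.20, adjusted p = 0.000684) and was lower with both agents than with LPS (-1.0, SE 0.19, adjusted p = 0.00821), and S100a10 was lower after LPS (-0.54, SE 0.15, adjusted p = 0.0195). Both were lower with sedanolide alone, and S100a11, S100a1 (0.72) and S100a13 (0.72) were higher with both agents than with sedanolide alone. S100b, an astrocyte gene and the most abundant of the list, differed by 0.14 after LPS.

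Markers of other blood and brain cells moved beside the members. Lymphocyte markers, led by Gzma, summed to 1.71 CPM ± 0.192 (SD, n = 4) in controls, 9.66 ± 1.96 (SD, n = 5) after LPS, 0.952 ± 0.138 (SD, n = 5) with sedanolide and 6.85 ± 1.04 (SD, n = 5) in co-treated libraries. Of the 7 tested, Cd8a, Nkg7, Gzma, Cd79b, Ms4a1 and Igkc rose after LPS, and Igkc was lower with both agents than with LPS. Cd8a, Nkg7, Gzma, Cd79b and Ms4a1 were also higher in co-treated than in control and in sedanolide libraries. Monocyte markers, led by Vcan, summed to 27.6 ± 5.89, 39.1 ± 2.95, 26.1 ± 4.83 and 24.2 ± 3.31 CPM in the same order. That sum weighs the most abundant marker most. The median log2 change of the 8 markers, co-treated against control, was 0.59, where that of all genes was 0.0075. Of the 8 monocyte markers, Chil3 (also among the granule genes above), Ly6c2, Ccr2, Plac8 and Ms4a4c rose after LPS, and Cd209a was lower (-2.18, SE 0.46, adjusted p = 0.00298). Chil3, Plac8 and F13a1 (also a border macrophage marker) were lower with both agents than with LPS. Against control, co-treated libraries had Ms4a4c higher and Cd209a lower. Against sedanolide alone, they had Ly6c2, Ccr2 and Ms4a4c higher and Cd209a lower. Of the endothelial markers (Cldn5, Pecam1, Cdh5, Tie1, Esam and Flt1) all 6 rose after LPS, and Tie1 and Esam were lower with both agents than with LPS. Cldn5, Pecam1, Tie1 and Esam were higher in co-treated libraries than in controls.

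Border macrophage markers, led by Mrc1, averaged 20.4 ± 8.61 CPM (SD, n = 4) in controls, 34.3 ± 14.5 (SD, n = 5) after LPS, 11.3 ± 2.27 (SD, n = 5) with sedanolide and 14.9 ± 3.59 (SD, n = 5) in co-treated libraries. The LPS libraries with high Cdhr1 (replicates 2, 3 and 4) stood at 52.3, 38.0 and 42.0 CPM and the bulb-poor LPS libraries at 20.7 and 18.3 CPM, close above the 9.31 to 18.2 CPM of the co-treated libraries. After LPS, Ms4a7 rose and Lyve1 was lower (-1.14, SE 0.33, adjusted p = 0.0312), and F13a1, Cd163 and Ms4a7 were lower with both agents than with LPS. Erythroid markers, led by the globin gene Hbb-bs, whose near-identical copies may share reads, averaged 248 ± 40.5 CPM in controls, 70.5 ± 70.1 after LPS, 147 ± 55.8 with sedanolide and 63.2 ± 26.3 in co-treated libraries, and Hba-a2 was called lower after LPS and in co-treated mice against control. The part of these cell types in the members' changes was not tested. Of the eosinophil, mast cell and basophil markers only Siglecf was tested, and it rose by 2.16 after LPS (adjusted p = 2.90e-05). Of the platelet markers 3 of 6 were tested and none was called.

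**Figure D5:**
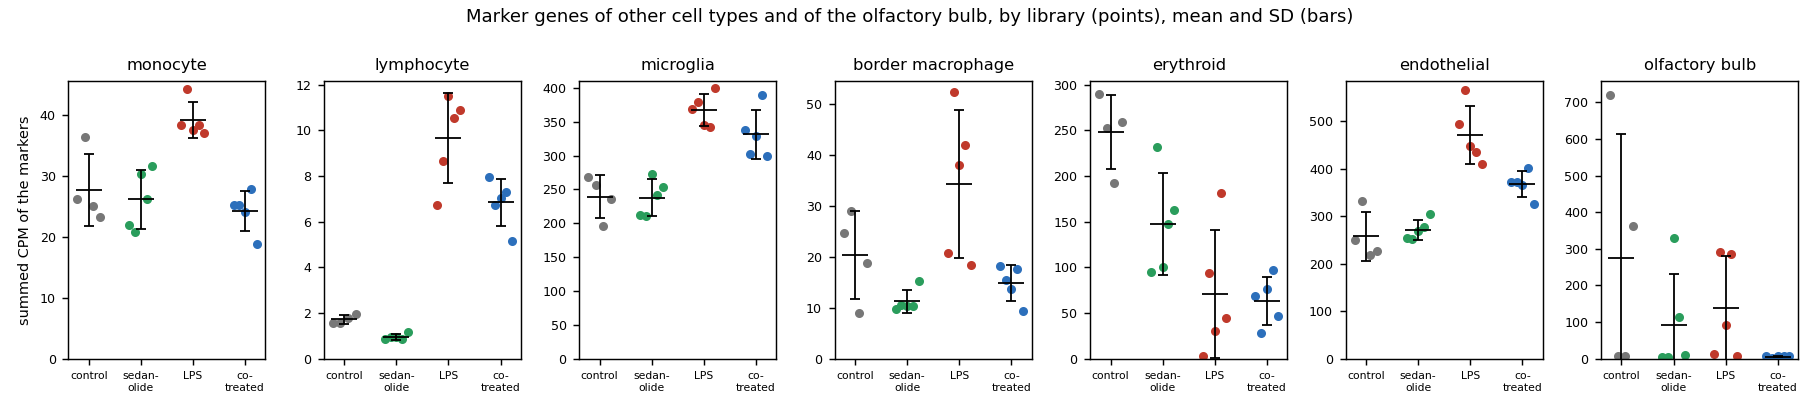
Summed CPM of the markers of 6 cell types and of the olfactory bulb in every library by group, with bars for the mean and SD, cut at 0. Mean lymphocyte, monocyte, microglia, border macrophage and endothelial sums are highest after LPS. The mean erythroid sum is highest in controls, and the bulb sum is under 10 CPM in all 5 co-treated libraries.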

How the data were processed

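Poly(A) RNA of the medial prefrontal cortex was sequenced from 19 libraries, grouped by their titles. The values deposited by the authors are raw counts of reads for each gene, in whole numbers. The authors used fastp, HISAT2, StringTie, RSEM and DESeq2, per the submitters' processing notes, with no versions, while the deposited table's name points to featureCounts, so which program made the counts is unsettled; the build, annotation, counting settings and use of strand are not given in the sources used here.

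The tests ran in edgeR 4.0.16 (R 4.3.3) with TMM library factors, the default expression filter (minimum count 10), which left 17757 genes and all 10 members, and the robust quasi-likelihood test, two-sided, with 1 mean per group over all 19 libraries. Adjustment was by Benjamini-Hochberg across all genes in a comparison, with calls at an adjusted p below 0.05. The standard error is the log2 change over the square root of F. The script was tested on simulated data.

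Levels per kb used GENCODE exon lengths on GRCm38, whose coordinates differ from the deposited ones, and promoters are RefSeq's. The members and lists were chosen with earlier results of these data known. Every member is named; of a list, the called genes and the most abundant one are named, and likeness is the Pearson correlation of log2 CPM (prior count 2). Alternatives were RLE and upper quartile factors, no filter, 1 CPM in 4 libraries, only the groups compared, DESeq2 1.42.0, a replicate block, an olfactory bulb index as covariate, the bulb-poor libraries (Cdhr1 under 20 CPM) and leaving out each library. Control replicate 3 was not analysed here, and some genes of the lists are not reported here.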

Additional observations from a re-analysis of the deposited data

Results flagged for a closer look

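Each of the 40 combinations of a member and a group was searched for a library far from the others by Dixon's criterion, which chance meets in about 1 of 20. S100a9 stood at 19.5 CPM in LPS replicate 4, above the other LPS libraries, and Csf3r at 18.5 CPM in the same library, below them. Ltf stood at 1.58 CPM and Ngp at 3.12 CPM in co-treated replicate 2, both above the other co-treated libraries. Mmp8 stood at 0.393 CPM in control replicate 4, from 8 counts.

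For Mmp9 the sedanolide change differed with and without LPS, with a log2 difference of -1.70 (edgeR, SE 0.36, adjusted p = 0.0412). This call was lost in 14 of the 19 fits without 1 library and in the bulb-poor libraries.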

How the results depend on the processing

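The members had 60 results, 10 genes in 6 comparisons. Over all alternatives, 1531 values kept direction and side of the threshold, 76 lost the call, 16 gained it and 22 changed sign, and the causes were not tested. All sign changes concerned sedanolide alone or the interaction. Ltf with sedanolide alone was 0.0465 under the replicate block and Cxcr2 0.0838 in bulb-poor libraries; the interaction of Ngp was -0.0751 under the replicate block and -0.0258 with the bulb index. Without 1 library, log2 changes ran with sedanolide alone from -0.49 to 0.17 (Ltf), -0.63 to 0.72 (Mmp8) and -0.11 to 0.21 (Mmp9), and in the interaction from -0.23 to 0.73 (S100a8), -0.79 to 0.39 (Ngp) and -0.92 to 0.25 (Cxcr2).

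In bulb-poor libraries the members called were 2 for co-treated against LPS, 2 for co-treated mice against control, 4 for co-treated against sedanolide, 0 for the interaction, and 8 for LPS against control. Co-treated against LPS gave 4 with the bulb index, sedanolide alone 2 with DESeq2, and the interaction 0 under the replicate block. Without 1 library, the counts of members called were 9 to 10 (LPS against control), 0 to 1 (sedanolide), 4 to 8 (both agents against LPS), 4 to 6 (both against control), 5 to 8 (both against sedanolide) and 0 to 1 (interaction).

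Over all genes, LPS against control called 1938 (848 in bulb-poor libraries, 1114 with only the groups compared, 1308 to 2478 without 1 library). Sedanolide called 943 (439 without the filter, 95 under the replicate block, 8 bulb-poor, 19 groups only, 1895 with DESeq2, 97 to 1410 without 1 library). Co-treated against LPS called 350 (145 under the block, 106 with the bulb index, 35 bulb-poor, 723 groups only, 911 with DESeq2, 141 to 590 without 1 library). Co-treated against control called 1965 (1244 without the filter, 954 under the block, 1080 with the index, 615 bulb-poor, 876 to 2907 without 1 library), and co-treated against sedanolide 990 (762 to 1247 without 1 library). The interaction called 104 (32 under the block, 268 with the index, 20 bulb-poor, 441 with DESeq2, 33 to 242 without 1 library).

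Replicate numbers did not pair the libraries: deviations of same-numbered libraries had a mean correlation of -0.105 over 27 pairs (-0.514 to 0.290). Under the block, 5 members were called for co-treated against LPS. Depth limits Camp, Mmp8, Cxcr2, Retnlg and Ltf, with at most 9 counts per control library.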
